A study of Mus musculus with 15 samples.

Results

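Gluconeogenesis and glycolysis are the opposite directions of glucose metabolism in liver, and 9 genes of the 2 pathways are described here in livers of mice given a carcinogen and a liver toxin: G6pc, Pck1, Fbp1, Pklr, Pkm, Hk2, Ldha, Pgk1 and Ppargc1a. They were chosen by gene symbol, and every probe set annotated to exactly 1 of these symbols was taken. That gave 19 probe sets of the 45101 on a whole-genome Affymetrix mouse array, of which 16 passed the filter on low values, a log2 level of 4 on at least 3 of the 15 arrays. Through those, 8 of the 9 genes were among the 9482 genes tested, and Hk2 was not.

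Each array held RNA from 1 liver sample of mice aged 15 weeks. Untreated wild type (3 arrays) was the C3H/HeOuJ strain without any agent. Treated wild type (4 arrays) was the same strain given diethylnitrosamine (DEN, 100 mg/kg), a carcinogen activated in hepatocytes, by injection at 12 weeks of age, then carbon tetrachloride (CCl4, 0.50 ml/kg), which kills hepatocytes near the central vein, at 13 and at 15 weeks. These livers were taken 48 hours after the second CCl4 dose. Treated mutants (4 arrays) were C3H/HeJ mice, whose receptor for bacterial lipopolysaccharide, Tlr4, carries the P712H change, on the same DEN and CCl4 schedule. The antibiotics group (4 arrays) was C3H/HeOuJ mice that drank ampicillin, neomycin and metronidazole (1 g/l each) and vancomycin (500 mg/l) from week 10 for 2 weeks, so that the antibiotics ended at the age of the DEN dose, and then had the same schedule. There were no untreated mutants and no mice given antibiotics alone, and the mutant is another substrain, so that strain and Tlr4 allele cannot be told apart. The labels do not say whether each array is a separate animal. The p-values set a group difference against the spread between these samples, which need not be the spread between animals. The sex of treated mutant replicate 1 is not labelled, the others being male.

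As background, gluconeogenesis makes glucose from lactate, amino acids and glycerol in fasting, and its committed steps are run by phosphoenolpyruvate carboxykinase (Pck1), fructose bisphosphatase (Fbp1) and the catalytic subunit of glucose-6-phosphatase (G6pc), which releases free glucose. Ppargc1a is a transcriptional coactivator that raises these genes in fasting. Glycolysis runs the other way: hexokinase 2 (Hk2) traps glucose, phosphoglycerate kinase (Pgk1) makes ATP, pyruvate kinase makes pyruvate and lactate dehydrogenase A (Ldha) turns it to lactate. Adult hepatocytes use the liver form of pyruvate kinase from Pklr, which also makes the red cell form, while Pkm serves most other cells, including macrophages, fibroblasts and dividing cells, and Hk2 is low in adult liver.

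The promoters of 5 members are shown because these genes separate the responses described below: G6pc and Pck1 differed between the antibiotics group and treated wild type, Pklr fell most with treatment, and Ldha and Pgk1 rose with it. Each line gives the 250 bases before a transcription start, 5′ to 3′ on the gene's strand, from RefSeq on GRCm38.p6, and capitals mark matches to the motifs named after them.
G6pc, chr11:101367466-101367715, + strand: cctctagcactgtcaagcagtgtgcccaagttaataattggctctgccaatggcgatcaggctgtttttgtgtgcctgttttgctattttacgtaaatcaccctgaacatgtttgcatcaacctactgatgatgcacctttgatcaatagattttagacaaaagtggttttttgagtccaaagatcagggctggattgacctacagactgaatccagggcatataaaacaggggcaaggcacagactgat
Pck1, chr2:173152823-173153072, + strand: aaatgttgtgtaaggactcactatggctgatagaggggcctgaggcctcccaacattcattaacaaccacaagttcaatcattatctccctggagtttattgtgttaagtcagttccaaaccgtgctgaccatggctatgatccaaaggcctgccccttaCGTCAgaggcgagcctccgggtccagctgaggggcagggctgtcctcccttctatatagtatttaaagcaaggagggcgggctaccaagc
Pklr, chr3:89136373-89136622, + strand, the downstream of 2 listed starts: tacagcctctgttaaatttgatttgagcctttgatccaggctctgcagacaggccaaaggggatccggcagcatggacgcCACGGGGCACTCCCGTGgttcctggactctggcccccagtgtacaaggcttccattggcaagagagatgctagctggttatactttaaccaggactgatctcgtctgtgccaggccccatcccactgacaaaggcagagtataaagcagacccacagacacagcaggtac
Ldha, chr7:46845554-46845803, + strand, the upstream of 2 listed starts: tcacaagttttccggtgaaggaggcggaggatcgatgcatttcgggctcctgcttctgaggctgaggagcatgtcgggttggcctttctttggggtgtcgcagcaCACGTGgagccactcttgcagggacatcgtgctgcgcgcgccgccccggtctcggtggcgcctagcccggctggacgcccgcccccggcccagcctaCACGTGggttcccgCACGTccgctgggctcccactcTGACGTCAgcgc
Pgk1, chrX:106186850-106187099, + strand: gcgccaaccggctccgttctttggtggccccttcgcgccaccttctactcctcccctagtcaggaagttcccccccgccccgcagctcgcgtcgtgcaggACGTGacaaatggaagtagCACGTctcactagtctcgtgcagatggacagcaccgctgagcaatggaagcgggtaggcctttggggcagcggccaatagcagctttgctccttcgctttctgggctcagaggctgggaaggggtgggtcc
The motifs were ACGTG, the core of hypoxia response elements, CACGTG, an E box that itself holds ACGTG on both strands, and TGACG, the shared core of cAMP response elements, each on either strand. Of 12 listed promoters of the 9 genes, ACGTG was found in 5 (Hk2, Ldha, Pgk1, Pkm and Ppargc1a), against 16.6% of all 32851 promoters of the same length. CACGTG was found in 1 member promoter, that of Ldha, against 6.02% of all, and TGACG in 5 (Hk2, Pck1, Ppargc1a and both of Ldha), against 17.8%. In the printed Pklr promoter the capitals mark CACGGG, any 5 bases and CCCGTG, the known carbohydrate response element of this gene, which was searched for after the sequences had been read and occurred in 1 of the 32851 promoters. The G6pc window held none of these letters. A match is a description of sequence, not a measured binding site.

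In treated against untreated wild type, the liver-type genes Pklr, Pck1 and Fbp1 fell and the general glycolytic genes Pkm, Ldha and Pgk1 rose, by 1.37-fold (Pgk1) to 7.23-fold (Pklr). In all, 6 of the 8 tested members passed an adjusted p of 0.05 in limma's moderated test, where 62.6% of all tested genes did. The share of members called was therefore near the background of this comparison. In treated mutants against treated wild type, Pklr was higher and Pkm and Pgk1 lower (3 of 8, background 30.8%). In the antibiotics group against treated wild type, G6pc, Pck1 and Pklr were higher and no member was lower (3 of 8, background 14.0%). Both of these comparisons use the same 4 treated wild-type arrays. Pkm, counted in the treatment and mutant comparisons, passed the filter only through treated wild type and the antibiotics group, where it was high. Per probe set, 9 of 16 were called with treatment (background 59.9%), 2 in the mutant comparison (28.6%) and 4 in the antibiotics comparison (12.3%). The median of all genes shifted by 0.10 (log2) with treatment, and by -0.12 when each array was centred on its own median, so differences of that size depend on the scale; centring also moved the share of higher genes among those called from 57.4% to 42.4%.

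**Figure D1:**
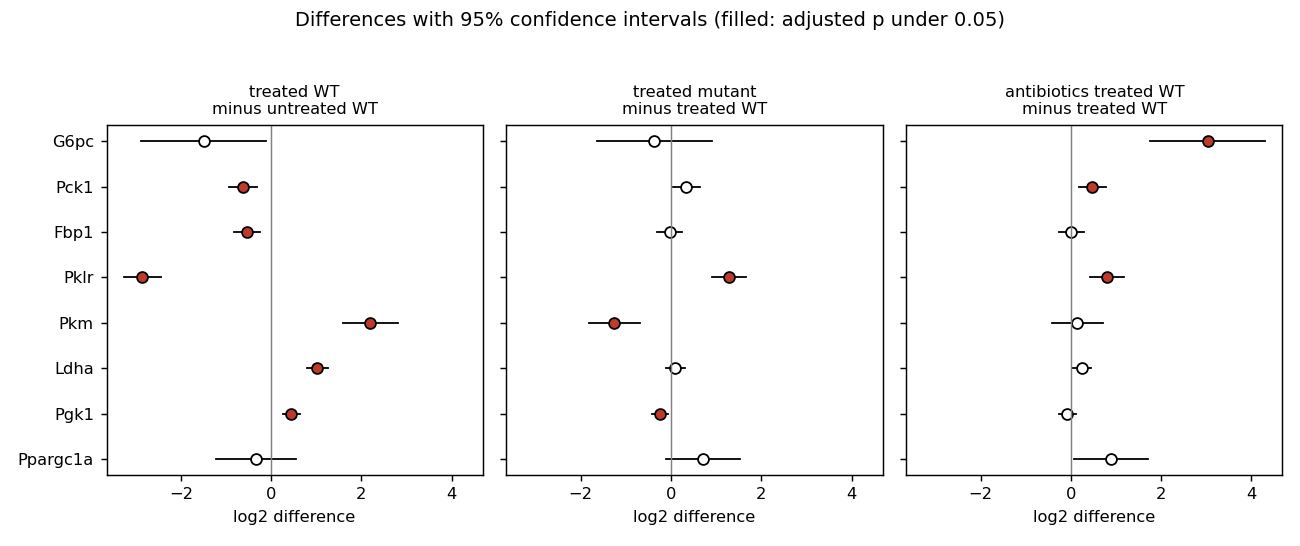
Log2 differences of the 8 tested genes (horizontal axis) in 3 comparisons, with 95% confidence intervals; filled points passed an adjusted p of 0.05. Pklr (-2.85) and Pkm (2.20) lie farthest from 0 with treatment, and G6pc (3.03) in the antibiotics comparison.

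G6pc, the last enzyme of gluconeogenesis, was highest in the antibiotics group. Its log2 levels were 11.29, 12.09, 10.74 and 11.79 there, against 9.16, 7.49, 7.62 and 9.51 in treated wild type. Untreated livers had 9.56, 10.35 and 9.91, and treated mutants 6.29, 8.56, 9.51 and 7.95. Every antibiotics array lay above every array of the other 3 groups. The antibiotics group exceeded treated wild type by 3.03 ± 0.60 (SE; 8.18-fold, adjusted p = 0.00602) and the mutants lay 10.6-fold below the antibiotics group (-3.40 ± 0.60, adjusted p = 0.00265). Against untreated livers it was higher by 1.54 ± 0.65 without overlap, but the adjusted p was 0.0526. Treated wild type minus untreated livers gave -1.49 ± 0.65 (adjusted p = 0.0565), with no overlap, although the nearest arrays read 9.51 and 9.56. Treated mutants and treated wild type overlapped (difference -0.37, 95% interval -1.64 to 0.91, adjusted p = 0.681). In the order antibiotics, untreated, treated wild type, mutant, no neighbouring groups were called different, and only the last pair overlapped. In bulk liver, fewer cells of a type and less RNA per cell cannot be told apart.

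The G6pc arrays spread widely within treated groups, with an SD of 1.04 in treated wild type, 1.36 in mutants and 0.60 with antibiotics, against 0.39 in untreated livers. The difference between antibiotics and treated wild type stayed between 2.71 and 3.39 as each array was left out, with an adjusted p of at most 0.0197. The treatment difference was called without treated wild-type replicate 1 (adjusted p = 0.0447) or 4 (0.0277) and without treated mutant replicate 1 (0.0207) or 3 (0.0356), when arrays were centred (0.0301) and in a fit of the 2 groups alone (0.0304). The antibiotics group was called above untreated livers without treated wild-type replicate 2 (0.0498) or 4 (0.0465), treated mutant replicate 1 (0.0190) or 3 (0.0328), or antibiotics replicate 3 (0.0423), and in a fit of the 2 groups alone (0.00445). The mutant lay below untreated livers (-1.86 ± 0.65, adjusted p = 0.0249), a call lost without untreated replicate 2 (0.0846) or 3 (0.0570) or mutant replicate 1 (0.0672).

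Pck1, which makes phosphoenolpyruvate from oxaloacetate, was measured by 2 probe sets above the filter and by 1455209_at, which stayed between 2.11 and 2.74 on all arrays. The brighter one, 1423439_at, read 13.52, 13.37 and 13.57 in untreated livers and 13.20, 12.92, 12.63 and 12.72 in treated wild type. It fell by 0.62 on the log2 scale with treatment (SE 0.15, 1.54-fold, adjusted p = 0.00224), with no overlap. The antibiotics arrays, at 13.44, 13.53, 13.01 and 13.40, overlapped treated wild type through replicate 3 and were higher by 0.48 ± 0.14 (adjusted p = 0.0333). That call was lost without treated wild-type replicate 2, 3 or 4 or antibiotics replicate 1, 2 or 4 (adjusted p 0.0587 to 0.0968), and in a fit of the 2 groups alone (0.0915). The mutant arrays, at 13.05, 13.23, 13.23 and 13.33, were 0.34 ± 0.14 above treated wild type (adjusted p = 0.0752), which passed without treated wild-type replicate 1 (0.0219) or antibiotics replicate 3 (0.0488), with array weights (0.00941) and with a robust prior with a trend (0.0441). Against untreated livers, neither the mutants (-0.28, adjusted p = 0.127) nor the antibiotics group (-0.14, adjusted p = 0.426) were called on this probe set. The mutant difference was called after centring (0.0201) and with the mean of the probe sets (0.00353).

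The second Pck1 probe set, 1439617_s_at, gave larger differences with treatment and with antibiotics against treated wild type, but not in mutants against treated wild type. It read 7.94, 8.14 and 8.66 in untreated livers, 7.33, 6.52, 6.11 and 6.57 in treated wild type, 6.47, 6.93, 7.10 and 6.97 in mutants, and 7.42, 8.01, 8.20 and 8.91 with antibiotics. The antibiotics arrays all lay above the treated wild-type arrays, with 7.42 and 7.33 as the nearest, and above the mutant arrays. In the fit over all probe sets it fell by 1.61 with treatment (SE 0.32, adjusted p = 0.000567). It was 1.51 ± 0.30 higher with antibiotics than in treated wild type (2.84-fold, adjusted p = 0.00635). The mutant was 0.24 above treated wild type (adjusted p = 0.593) and 1.27 below the antibiotics group (treated mutant minus antibiotics -1.27 ± 0.30, adjusted p = 0.0154). Against untreated livers the mutants were called lower here, unlike on the brighter probe set (-1.38 ± 0.32, adjusted p = 0.00260), with no overlap. The antibiotics group was not called (-0.11, adjusted p = 0.794). The direction was the same in both probe sets and the size was not, so the fold of Pck1 depends on the probe set read.

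**Figure D2:**
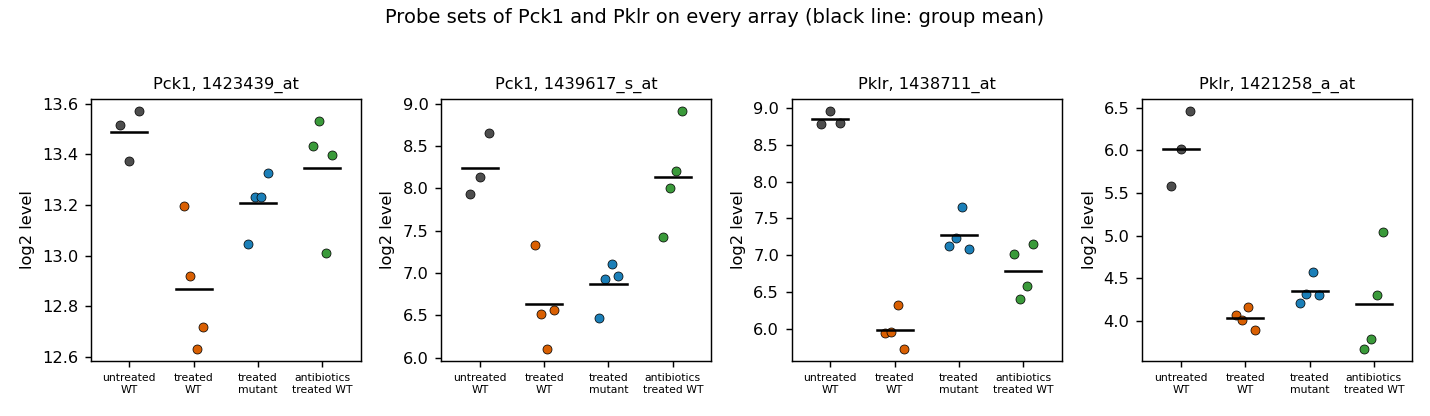
Log2 levels (vertical axis) of 2 probe sets each of Pck1 and Pklr on every array, by group; black lines are group means and each panel has its own scale. The Pck1 probe set at right of its pair spans 6.11 to 8.91, and in both the antibiotics mean lies above the treated wild-type mean.

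Fbp1, the enzyme that removes a phosphate from fructose bisphosphate, fell with treatment in every treated group and by a like amount. Its levels were 13.65, 13.82 and 13.82 in untreated livers and 13.15, 13.11, 13.34 and 13.33 in treated wild type. All 12 treated arrays, which ran from 12.88 to 13.46, lay below the untreated ones. The difference from untreated livers was -0.53 ± 0.14 in treated wild type (1.44-fold, adjusted p = 0.00378), -0.56 in mutants (0.00321) and -0.52 with antibiotics (0.00485). Between the treated groups no difference was called: the mutant minus treated wild type gave -0.03 (95% interval -0.30 to 0.24) and antibiotics minus treated wild type 0.01 (-0.26 to 0.28).

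**Figure D3:**
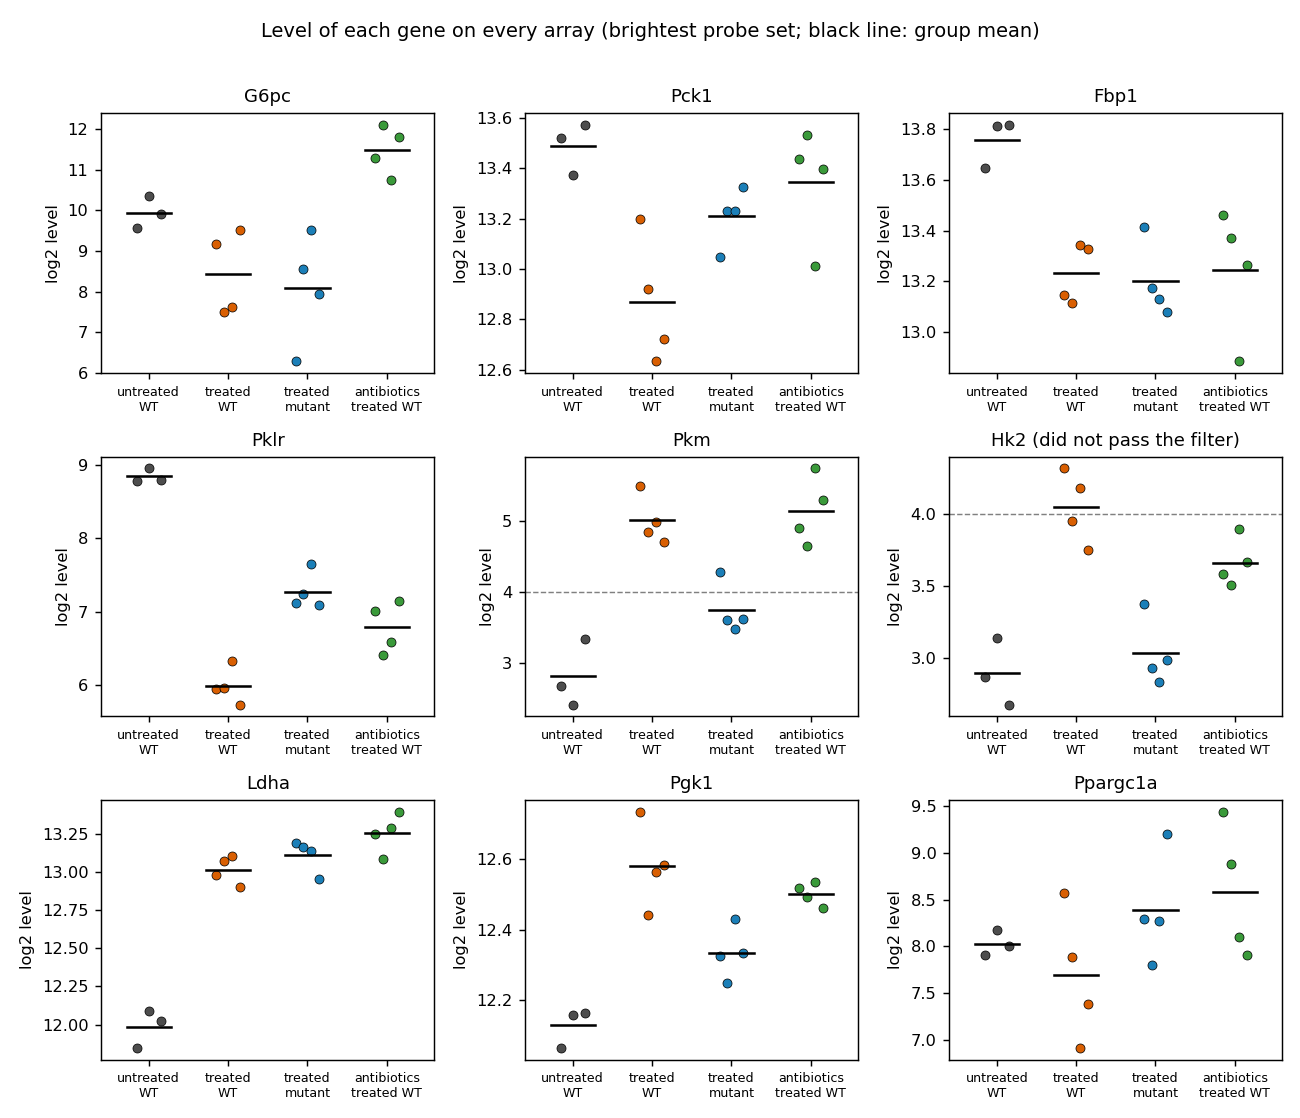
Log2 level (vertical axis, own scale per panel) of the 9 genes on all 15 arrays, by group, for the probe set with the highest mean; black lines are group means and the dashed line is the filter level of 4. G6pc is highest with antibiotics (10.74 to 12.09), Pklr lowest in treated wild type (5.73 to 6.33), and Ldha is at 12.90 or above on every treated array.

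Pklr, the pyruvate kinase of hepatocytes, had the largest treatment difference of the members. Probe set 1438711_at read 8.78, 8.96 and 8.80 in untreated livers and 5.95, 5.96, 6.33 and 5.73 in treated wild type. The mutant arrays were at 7.12, 7.24, 7.66 and 7.09, and the antibiotics arrays at 7.01, 6.41, 6.59 and 7.15. Neither group reached the untreated arrays, and both lay above all treated wild-type arrays. Pklr fell by 2.85 with treatment (SE 0.19, 7.23-fold, adjusted p = 1.90e-08). It was 1.28 ± 0.18 higher in mutants (2.43-fold, adjusted p = 0.000120) and 0.80 ± 0.18 higher with antibiotics (1.74-fold, adjusted p = 0.0106) than in treated wild type. In the order untreated, mutant, antibiotics, treated wild type, the mutant and antibiotics arrays overlapped and were not called different (0.48, 95% interval 0.10 to 0.87, adjusted p = 0.0905).

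A dimmer Pklr probe set, 1421258_a_at, also fell with treatment (-1.98 ± 0.27, at least 3.88-fold, adjusted p = 1.91e-05), from 5.58 to 6.46 in untreated livers to 3.90 to 4.17 in treated wild type. There the treated groups sat close to background, at 4.21 to 4.58 in mutants and 3.68 to 5.04 with antibiotics, and neither comparison was called (0.31, adjusted p = 0.380, and 0.16, adjusted p = 0.721). With the mean of the probe sets in place of the brightest, the antibiotics difference of Pklr was 0.48 (adjusted p = 0.0958) and no longer called. The third, 1421259_at, stayed under 3 on all arrays. Since Pklr also serves red cells, erythroid markers are given here: Alas2, the only one of 8 that was tested, fell by 2.69 with treatment (adjusted p = 2.96e-07) and differed by 0.12 in mutants (adjusted p = 0.719) and by -0.06 with antibiotics (adjusted p = 0.891). The erythroid genes Slc4a1, Epb42 and Hba-a1 did not exceed 3.56 on any array.

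Pkm, the pyruvate kinase of most other cells, went the other way. Its probe set, 1417308_at, read 2.68, 2.41 and 3.33 in untreated livers, all near background, and 5.49, 4.85, 4.99 and 4.70 in treated wild type. Mutants gave 4.29, 3.60, 3.47 and 3.62, and the antibiotics group 4.90, 4.65, 5.74 and 5.29. At or above the filter level of 4 were 0 of 3 untreated, 4 of 4 treated wild-type, 1 of 4 mutant and 4 of 4 antibiotics arrays. Pkm was thus tested only because it was high in treated wild type and the antibiotics group. Its calls against untreated livers and mutants are therefore not independent of the filter. The mutant arrays lay between the untreated and the treated wild-type arrays without touching either, and the antibiotics arrays covered the treated wild-type range. Pkm rose at least 2.01-fold with treatment (fitted difference 2.20 ± 0.29, adjusted p = 1.16e-05; a fold is bounded by setting values under 4 to 4). It was at least 1.91-fold lower in mutants than in treated wild type (-1.26 ± 0.26, adjusted p = 0.00256). Antibiotics and treated wild type differed by 0.14 (95% interval -0.43 to 0.71, adjusted p = 0.780), and the mutant was below the antibiotics group by at least 2.10-fold (adjusted p = 0.00389). The excess of mutants over untreated livers (0.94, adjusted p = 0.0129) was lost without untreated replicate 2 (0.0707), with quantile normalization (0.304) and with values under 4 set to 4 (0.827).

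**Figure D4:**
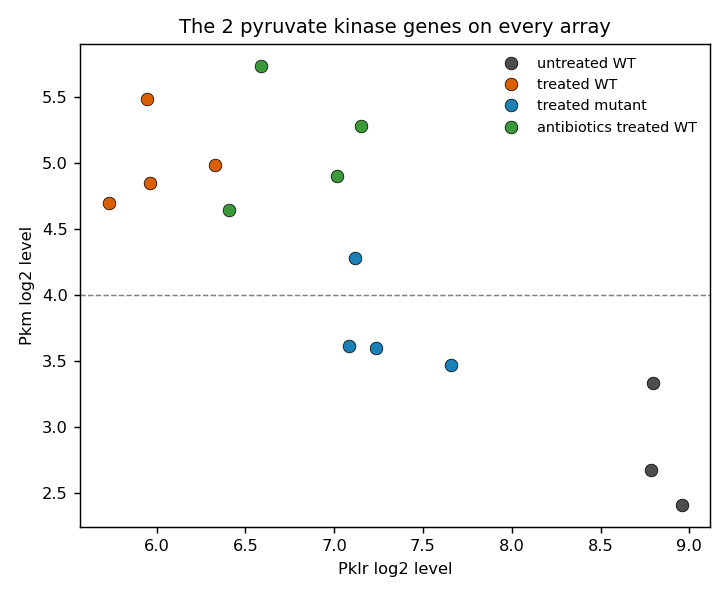
Log2 level of Pklr (horizontal axis) and Pkm (vertical axis) on each of 15 arrays, coloured by group; the dashed line is the filter level of 4, and levels of different probe sets are not comparable with each other. Untreated arrays have Pklr at 8.78 or above and Pkm at 3.33 or below, and the antibiotics and treated wild-type arrays share a Pkm range while Pklr separates them.

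Hk2, the hexokinase of muscle and of dividing cells, stayed near background and failed the filter, with 2 arrays at or above 4. It read 2.86, 3.14 and 2.67 in untreated livers, 4.32, 3.95, 4.18 and 3.75 in treated wild type, 3.37, 2.93, 2.83 and 2.99 in mutants, and 3.58, 3.50, 3.89 and 3.67 with antibiotics. The treated wild-type arrays were above all untreated and all mutant arrays. In a fit without the filter, over 18193 genes, the difference was 1.16 ± 0.16 with treatment (adjusted p = 3.26e-05), -1.02 ± 0.15 in mutants against treated wild type (adjusted p = 0.000248) and -0.39 ± 0.15 with antibiotics (adjusted p = 0.146). At these levels no fold is given.

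Most macrophage, stellate cell and dividing-cell markers rose with treatment and were lower in mutants than in treated wild type. The fitted differences of Pkm and Hk2 had the same signs, but both genes were near background in untreated livers and mutants, and Hk2 failed the filter. With antibiotics most of these markers were also lower than in treated wild type, and neither Pkm nor Hk2 was called. In mutants against untreated livers, where 54.2% of all genes were called, 2 of 10 macrophage markers were higher and 5 lower. There 6 of 9 stellate cell and 9 of 9 dividing-cell markers were higher. Pkm was also called higher there, with both groups near background. Of 9 sinusoidal endothelial markers 1 was higher and 2 lower. Counts here and in the next paragraph stand against 62.6% of all genes called with treatment, 30.8% in mutants and 14.0% with antibiotics. Of 10 macrophage markers, 8 rose with treatment, 9 were lower in mutants than in treated wild type, and 8 were lower with antibiotics (5 without treated wild-type replicate 1 or antibiotics replicate 1). Their summed level (log2 of the sum of linear values) was 9.69 to 10.89 in untreated livers, 12.32 to 12.85 in treated wild type, 10.01 to 10.42 in mutants and 11.30 to 12.22 with antibiotics. Of 9 stellate cell markers, all 9 rose with treatment and all 9 were lower in mutants; with antibiotics 6 were lower, falling to 1 without antibiotics replicate 1 and 3 without treated wild-type replicate 2 or 3. Their summed level was 10.85 to 12.02, 13.71 to 13.92, 11.86 to 12.31 and 13.01 to 13.54 in the same order of groups. Sinusoidal endothelial markers rose in 4 of 9 with treatment (7 of 9 without untreated replicate 3), where 3408 of all 9482 genes rose. They were lower in mutants in 9 of 9 (summed level 10.32 to 10.76, against 11.43 to 11.65 in treated wild type), and 0 of 9 were called with antibiotics (11.17 to 11.63). Dividing-cell markers rose in 9 of 9 with treatment, from 5.66 to 5.89 up to 12.76 to 13.53, and were lower in 9 of 9 in mutants (10.49 to 11.40) and 9 of 9 with antibiotics (10.15 to 12.45). The last count was 4 without treated wild-type replicate 3 and 5 without treated wild-type replicate 4 or antibiotics replicate 1 or 3. A summed level of 5.66 to 5.89 over 9 genes puts most of these markers under the filter level of 4 in untreated livers. The counts of dividing-cell markers above untreated livers, in treated wild type and in mutants, are therefore not independent of the filter. The part of these cells in the Pkm and Hk2 levels was not tested.

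Few hepatocyte markers were called. Of 8 tested, 2 fell with treatment, the xenobiotic enzyme Cyp2e1 (-3.31, adjusted p = 1.52e-06) and the lipoprotein gene Apob (-0.23, adjusted p = 0.0314; lost with quantile normalization), and 0 were called in the mutant or antibiotics comparisons. Their summed level was 17.39 to 17.48 in untreated livers and 17.13 to 17.36 over all treated arrays, and albumin (Alb) differed by -0.08 with treatment (adjusted p = 0.488). Centring the arrays raised the number that fell to 6 of 8, and it was 1 without treated wild-type replicate 1, 2 or 4 or untreated replicate 2 or 3. Both tested neutrophil markers were called higher with treatment, and lower in mutants and with antibiotics than in treated wild type. Their summed level averaged 6.35 in treated wild type, but 3.57 in untreated livers, 4.35 in mutants and 4.28 with antibiotics. Outside treated wild type these 2 markers were thus near or under the filter level of 4. Their calls are therefore not independent of the filter. The other 4 neutrophil markers on the array did not exceed 2.83 on any array. Of 5 cholangiocyte markers, 4 rose with treatment, 2 were higher in mutants and 0 were called with antibiotics. The adipocyte, skeletal muscle and lymphocyte markers read here did not exceed 3.65 on any array, and the 1 tested exocrine pancreas marker fell with treatment (-2.44) and was not called in the other 2 comparisons.

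Ldha, which makes lactate from pyruvate, rose in every treated group. Its levels were 11.85, 12.09 and 12.02 in untreated livers, 12.98, 13.07, 13.11 and 12.90 in treated wild type, 13.19, 13.16, 13.14 and 12.95 in mutants, and 13.24, 13.08, 13.29 and 13.39 with antibiotics. No treated array overlapped the untreated ones, and the 3 treated groups overlapped each other. The treatment difference was 1.03 ± 0.11 (2.04-fold, adjusted p = 1.28e-06), that of mutants against untreated livers 1.12 (adjusted p = 1.04e-06) and that of the antibiotics group 1.27 (adjusted p = 2.50e-07). Against treated wild type, the mutant gave 0.10 (95% interval -0.11 to 0.31, adjusted p = 0.487) and antibiotics 0.24 (0.03 to 0.45, adjusted p = 0.120).

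Pgk1, which makes the first ATP of glycolysis, rose less. Its brightest probe set, 1417864_at, read 12.06, 12.16 and 12.16 in untreated livers and 12.73, 12.44, 12.56 and 12.58 in treated wild type, an increase of 0.45 ± 0.09 (1.37-fold, adjusted p = 0.000640) without overlap. Antibiotics arrays were at 12.52, 12.49, 12.54 and 12.46 and were 0.37 above untreated livers (adjusted p = 0.00304), a call lost when arrays were centred (adjusted p = 0.0746) or probe sets averaged (0.0503). Mutant arrays, at 12.32, 12.25, 12.43 and 12.33, all lay just below treated wild type (-0.25 ± 0.09, adjusted p = 0.0403). That call was lost without 8 single arrays (untreated replicates 2 and 3, treated wild-type replicates 1, 3 and 4, mutant replicates 1, 2 and 4), with adjusted p up to 0.109, by centring (0.0740), with the mean of the probe sets (0.165) and in a fit of the 2 groups alone (0.0983). Of the other Pgk1 probe sets, 1439435_x_at rose with treatment (0.25, adjusted p = 0.0437) and 1438640_x_at gave 0.23 (adjusted p = 0.0658). In the mutant comparison they gave -0.08 (adjusted p = 0.559) and -0.14 (adjusted p = 0.278), and 1417864_at itself missed the threshold when all probe sets were fitted (0.0517). The suffix _x marks probe sets that can bind related transcripts, and Pgk1 and Ldha both have near-identical copies in the genome.

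Ppargc1a, the coactivator upstream of the gluconeogenic genes, had 5 probe sets above the filter and no called difference in any of the 6 comparisons. The brightest, 1434100_x_at, read 7.91, 8.17 and 8.01 in untreated livers, 8.57, 7.89, 6.92 and 7.39 in treated wild type, 8.29, 7.80, 8.28 and 9.20 in mutants, and 9.44, 8.88, 8.10 and 7.91 with antibiotics. All 4 groups overlapped, and the treated groups spread more (SD 0.58 to 0.71) than the untreated one (0.13). The differences were -0.34 ± 0.41 with treatment (adjusted p = 0.490), 0.70 ± 0.38 in mutants against treated wild type (adjusted p = 0.184) and 0.89 ± 0.38 with antibiotics (95% interval 0.07 to 1.71, adjusted p = 0.135). The last 2 passed when arrays were weighted by their fit (0.91, adjusted p = 0.0378, and 1.02, adjusted p = 0.0475). The spread recurred across probe sets: all 5 placed replicate 1 highest and replicate 3 lowest in treated wild type, replicate 4 highest and replicate 2 lowest in mutants, and replicate 1 highest in the antibiotics group. These probe sets share the same RNA and are not independent measurements of a group. The array highest for Ppargc1a read 9.16 for G6pc in treated wild type (highest 9.51) and 7.95 in mutants (highest 9.51). With antibiotics it read 11.29 for G6pc (highest 12.09). Whether the 2 genes vary together was not tested.

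The remaining comparisons set the mutant and antibiotics groups against untreated livers and against each other. Against untreated livers, 5 of 8 members were called in mutants (2 higher, 3 lower; background 54.2%; 3 without untreated replicate 2) and 5 of 8 in the antibiotics group (3 higher, 2 lower; background 58.8%). Per probe set these were 7 of 16 (background 51.0%) and 6 of 16 (56.0%). Pklr remained below untreated livers by 1.57 in mutants (difference -1.57 ± 0.19, adjusted p = 1.17e-05) and by 2.06 with antibiotics (-2.06 ± 0.19, adjusted p = 7.15e-07). Pkm exceeded untreated livers by at least 2.21-fold with antibiotics (adjusted p = 9.06e-06). Between mutants and the antibiotics group, G6pc and Pkm were the 2 of 8 called, both lower in mutants (background 12.3%), and 3 of 16 probe sets were called (10.5%), the third being the dimmer one of Pck1. Pkm is counted in all 3 of these comparisons. It passed the filter only through treated wild type and the antibiotics group, so its calls here are not independent of the filter.

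The other genes of these pathways were read from 9 lists, whose counts stand against 62.6% of all genes called with treatment (3408 higher, 2530 lower), 30.8% in the mutant comparison (1249 higher, 1668 lower) and 14.0% in the antibiotics comparison (469 higher, 854 lower). Of 15 tested glycolysis genes besides the members, 10 rose and 3 fell with treatment, with a median difference of 0.64 against 0.10 over all genes. The largest were the platelet phosphofructokinase Pfkp (2.30, at least 2.38-fold, adjusted p = 7.83e-05) and aldolase A, Aldoa (1.35, adjusted p = 0.00171), while aldolase C, Aldoc, fell (-2.07, adjusted p = 9.02e-07). Only 7 rose after centring and 5 after quantile normalization, where Hk3, Adpgk, Pfkl, Pfkfb3 and Ldhb were no longer called. In mutants against treated wild type, hexokinases Hk1 (-0.93, at least 1.63-fold, adjusted p = 0.000319) and Hk3 (-0.57, at least 1.25-fold, adjusted p = 0.000489) were lower. Pfkm, the muscle phosphofructokinase, was higher (0.63, adjusted p = 0.00471), and 4 genes were lower without untreated replicate 1. In the antibiotics group Pfkm was also higher (0.62, adjusted p = 0.0131) and Hk3 lower (-0.40, at least 1.25-fold, adjusted p = 0.0149). There 0 were lower without treated wild-type replicate 4 and 2 without treated wild-type replicate 2 or antibiotics replicate 2. The mean of Hk3 was 4.32 in treated wild type, but 3.75 in mutants and 3.93 with antibiotics, under the filter level of 4. Its calls are therefore not independent of the filter.

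Of 17 tested genes of gluconeogenesis and carbon entry, 4 rose and 3 fell with treatment, and after centring 3 rose and 8 fell. The mitochondrial carboxykinase Pck2 rose (1.89, at least 3.33-fold, adjusted p = 2.30e-07), as did the lactate transporter Slc16a1 (1.18, adjusted p = 1.28e-06). Slc37a4, which carries glucose 6-phosphate to G6pc in the endoplasmic reticulum, fell by 1.12 (adjusted p = 6.74e-05). With antibiotics, Slc37a4 was 0.63 above treated wild type (adjusted p = 0.0194), Fbp2 1.38 above (at least 2.39-fold, adjusted p = 0.00938) and the glycerol phosphate dehydrogenase Gpd1 0.55 above (adjusted p = 0.00817). These were the 3 called of 17, a share near the 14.0% of all genes. In mutants 1 of 17 was called, the alanine aminotransferase Gpt2 (-0.38, adjusted p = 0.0414; 0.0670 after centring). That count was 0 without any 1 of 10 arrays (untreated replicates 1 to 3, treated wild-type replicates 1 to 4, mutant replicates 1 and 2, antibiotics replicate 3) and 3 without mutant replicate 3.

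Regulators of hepatic glucose production fell with treatment in 16 of 25 and rose in 0, where 2530 of all 9482 genes fell; their median was -0.61. Those with the largest drops were Myc (-2.26, adjusted p = 6.46e-05), the coactivator Ppargc1b (-2.24, adjusted p = 1.22e-06) and the glucokinase regulator Gckr (-1.46, adjusted p = 0.000140). Mlxipl, the factor that binds carbohydrate response elements, fell by 0.42 (adjusted p = 0.0102). In mutants 6 of 25 were higher and 0 lower than in treated wild type (5 to 7 higher as single arrays were left out), a share called not above the 30.8% of all genes. They were led by Nr0b2, a bile acid-induced corepressor (1.46, adjusted p = 0.00739), Myc (1.37, adjusted p = 0.00572) and the Creb coactivator Crtc2 (0.81, adjusted p = 0.0124). With antibiotics 4 of 25 were higher and 0 lower, a share called near the 14.0% of all genes. In front were Nr0b2 (2.30, 4.93-fold, adjusted p = 0.00204), the insulin receptor substrate Irs2 (1.05, adjusted p = 0.0148) and Nr4a1 (0.69, at least 1.23-fold, adjusted p = 0.0224). Only 2 were called without antibiotics replicate 3 or treated wild-type replicate 2.

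**Figure D5:**
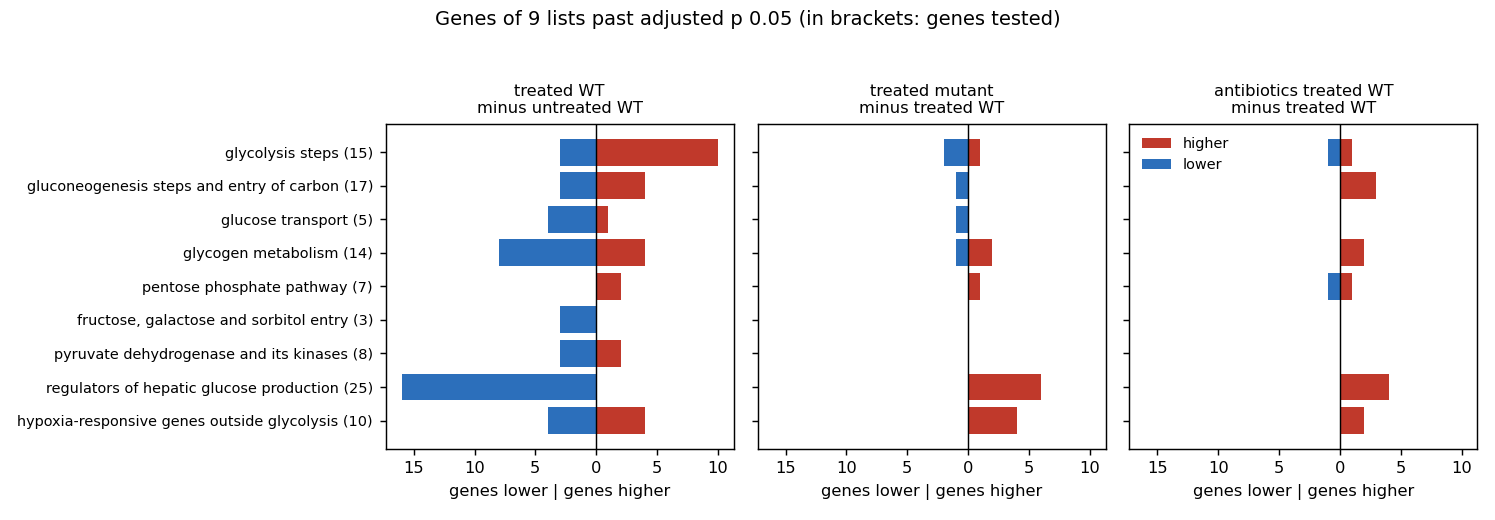
Number of genes in 9 pathway lists that were higher (right, red) or lower (left, blue) at an adjusted p under 0.05 in 3 comparisons, with the number tested in brackets; the members themselves are not counted. With treatment 10 of 15 glycolysis genes are higher and 16 of 25 regulators of hepatic glucose production are lower.

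Of 10 hypoxia-responsive genes outside glycolysis, 4 rose and 4 fell with treatment, so that they did not move one way (2 rose without untreated replicate 2, and 2 with quantile normalization). Ndrg1, a stress-induced gene, rose (1.87, adjusted p = 0.000344) and so did the prolyl hydroxylase subunit P4ha1 (1.45, at least 2.15-fold, adjusted p = 0.00233), while the mitophagy gene Bnip3 fell (-1.45, adjusted p = 4.41e-06). In mutants 4 of 10 were higher than in treated wild type and 0 lower, a share called not far from the 30.8% of all genes, among them Ndrg1 (1.71, adjusted p = 0.00134), P4ha2 (1.29, adjusted p = 0.00857) and Mxi1 (0.83, adjusted p = 0.000810). With antibiotics Ndrg1 (1.25, adjusted p = 0.0215) and Vegfa (0.41, adjusted p = 0.0311) were higher, a count of 2 that was 0 without antibiotics replicate 1 or treated wild-type replicate 2 or 3, and 1 without treated wild-type replicate 4 or antibiotics replicate 3 or 4.

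Glucose carriers and glycogen genes fell more often than they rose with treatment. All 5 tested carriers were called, with the fructose carrier Slc2a5 (-1.54, at least 2.27-fold, adjusted p = 0.000716) and the urate and hexose carrier Slc2a9 (-0.75, adjusted p = 0.00347) among the 4 that fell and the general carrier Slc2a1 the 1 that rose (0.72, adjusted p = 0.00302). The hepatocyte carrier Slc2a2 fell by 0.41 (adjusted p = 0.0154; 0.0935 with quantile normalization) and was 0.50 lower again in mutants than in treated wild type (-0.50, adjusted p = 0.00775). Of 14 glycogen genes, 4 rose and 8 fell: the brain-type phosphorylase Pygb rose (3.56, at least 7.65-fold, adjusted p = 1.41e-07), as did Pgm2 (2.87, adjusted p = 6.40e-06), and the glycogen-targeting subunit Ppp1r3c fell (-1.88, adjusted p = 6.26e-05). Pygb was lower in mutants than in treated wild type (-1.47, adjusted p = 0.00115) and Ppp1r3c higher (0.93, adjusted p = 0.0186).

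The 3 tested genes of fructose and galactose entry all fell with treatment, most of all ketohexokinase, Khk (-1.91, adjusted p = 4.69e-06), with Tkfc (-0.85, adjusted p = 8.53e-05) and Galt (-0.44, adjusted p = 0.0172). Of 8 genes around pyruvate dehydrogenase, 2 rose and 3 fell, against 2 and 5 after centring and 1 and 4 with quantile normalization. The kinase Pdk1 fell (-2.06, adjusted p = 3.00e-07) with the phosphatase Pdp2 (-1.35, adjusted p = 9.54e-05), and the fasting-induced kinase Pdk4 rose (1.56, at least 2.42-fold, adjusted p = 0.00391). In the pentose phosphate pathway Rpia (1.02, adjusted p = 0.00170) and Pgd (0.77, adjusted p = 0.000548) rose and none of the 7 genes fell, but 3 fell after centring, 1 fell with quantile normalization and 1 fell without treated wild-type replicate 1.

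The genes whose profile over the 15 arrays came nearest to each member were found by the root mean square difference of log2 values after centring each gene on its mean. Nearest to Pklr were Cyp2d22 (0.25), Hdac11 (0.30) and Suox (0.31), where the Pklr profile itself had a root mean square of 1.01 and the median gene lay 1.08 away. Nearest to Pkm were Jam2 (0.33), Pea15a (0.34) and Msn (0.35), with 0.99 for Pkm itself and a median of 1.01. For Ldha they were Galnt2 (0.12), Stub1 (0.13) and Grn (0.14; Ldha itself 0.47), and for Pgk1 Actb, Slc25a5 and Arpc2 (0.08 to 0.09; itself 0.18). For G6pc they were Mfsd2a (1.09), Tcim (1.09) and Ass1 (1.10), where the G6pc profile itself, which had the widest spread of the members, measured 1.61. Pck1 was nearest to Xylb, Hs6st1 and Cebpb (0.17 to 0.18; itself 0.28), Fbp1 to Sik2, Ndufb8 and Mllt10 (0.11; itself 0.26), and Ppargc1a to Pptc7, Pfkfb2 and Noc3l (0.39 to 0.40; itself 0.63).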

How the data were processed

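The authors deposited log2 probe set values, made with GCRMA per the submitters' processing notes, which corrects background and normalises between arrays; its settings and version are not given in the sources used here. Values were used as deposited. Arrays of a group correlated at 0.977 to 0.993 over the tested genes, 34.6% to 36.7% of probe sets reached a log2 level of 4, and the number of arrays limits the precision. Probe sets were named through the platform annotation and the RefSeq gene table of GRCm38.p6, and those with several symbols or none were left out. The probe set with the highest mean stood for its gene; a second fit used all 15541 probe sets kept. The 4 group means were fitted to all 15 arrays with limma 3.58.1 in R 4.3.3, and p-values were adjusted over all genes by Benjamini and Hochberg's method, separately for the 6 comparisons, with 0.05 as the threshold. The code was tested on simulated data. Plots were drawn with matplotlib 3.10.9 in Python 3.11.15.

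The members and the lists (136 pathway and 101 marker entries) were chosen with earlier results of these data known. Named were every member and probe set, up to 3 called genes with the largest change per list and comparison, and the 3 nearest profiles; other genes were named after their values were seen. A label text giving other ages and a liver resection contradicts the rest and was not used. Alternatives were centring, quantile normalization, values under 4 set to 4, no filter or one at 6, the mean of probe sets, fits of each pair of groups by itself, a robust prior with a trend, array weights, an adjusted p under 0.01, and leaving out each array.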

Additional observations from a re-analysis of the deposited data

Results flagged for a closer look

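In 57 sets of 4 arrays (each member probe set in each treated group), 2 arrays stood far from the other 3 of their group, where chance marks about 5% of sets. Pgk1 probe set 1438640_x_at read 12.63 on treated wild-type replicate 1, against 12.47 to 12.48 on the other 3. Pklr probe set 1421259_at read 1.92 on antibiotics replicate 1, against 2.12 to 2.16, all below the filter level.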

How the results depend on the processing

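No paired analysis was possible because the labels number the arrays across the groups and name no litter, batch or day that groups share. Over 8 members, 6 comparisons and the alternatives, 1122 of 1194 values kept their direction and side of the threshold, 32 lost a call, 25 gained one and 15 turned sign, none of them called. For Fbp1, mutants minus treated wild type (-0.03) gave 0.0095 when centred and -0.1044 to 0.0070 as arrays were left out, antibiotics minus treated wild type (0.01) gave -0.0091 by quantile normalization, -0.0669 with array weights and -0.0604 to 0.1322, and mutants minus antibiotics (-0.05) gave -0.1653 to 0.0273. Pck1 in antibiotics minus untreated (-0.14) gave 0.0579 by quantile normalization. Leaving out arrays gave -0.8445 to 0.2298 for G6pc in mutants minus treated wild type (positive without mutant replicate 1), -0.4613 to 0.0934 for Ppargc1a in mutants minus antibiotics, and -0.0594 to 0.3038 for Pkm in antibiotics minus treated wild type (negative without antibiotics replicate 3). The cause was not tested.

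Array weights called 5 members in the mutant and 5 in the antibiotics comparison in place of 3 each. A filter at 6 left 1 of 2 in mutants minus antibiotics, since Pkm was no longer tested. At an adjusted p under 0.01, 1 member was called with antibiotics and 3 in mutants against untreated livers. Over all genes that threshold gave 1690 in place of 2917 in the mutant comparison, 413 in place of 1323 with antibiotics and 428 in place of 1165 in mutants minus antibiotics, where a fit of the 2 groups alone gave 673. Leaving out 1 array at a time gave 6 to 7 members with treatment, 2 to 4 in the mutant comparison, 2 to 3 with antibiotics, 3 to 5 in mutants and 5 to 6 with antibiotics against untreated livers, and 2 in mutants minus antibiotics. It gave 820 to 1624 genes in the antibiotics comparison and 723 to 1375 in mutants minus antibiotics. The lowest came without treated wild-type replicate 4 (838) or antibiotics replicate 1 (820) in the first and without mutant replicate 1 (723) or antibiotics replicate 3 (757) in the second. Levels under 4 (Hk2, untreated and mutant Pkm, part of Pklr 1421258_a_at) are limited by background.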
